A study of Mus musculus with 8 samples.

Results

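Of 16535 regions with an H3K27ac peak in all 4 lists of mpkCCD cells, 790 were covered by more called bases with dDAVP than with vehicle in both experiments, which is 4.78% of them. H3K27ac, the acetylation of histone H3 at lysine 27, was mapped by chromatin immunoprecipitation followed by sequencing (ChIP-seq). mpkCCD is a cultured mouse cell line of the cortical collecting duct, and dDAVP is a vasopressin analogue selective for the V2 receptor. The cells belonged to 1 clone and had been kept in serum with insulin, dexamethasone, triiodothyronine and epidermal growth factor until they were confluent on permeable supports. All groups then spent 24 h without serum and hormones before 0.1 nM dDAVP or its vehicle was added for 24 h. There were 2 libraries with dDAVP and 2 with vehicle, 1 of each in experiment 1 and in experiment 2, and each had an input library. The labels do not say whether the experiments used separate thaws or cultures, so the spread between them may be technical.

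The regions were chosen by their own width, so every count and ratio of covered bases below describes the choice and tests nothing. Peaks of the 4 lists on chromosomes 1 to 19 and X that overlapped or touched were merged into 45700 regions. The covered bases of a region in a list are the base pairs of the region that lie under a peak of that list. A region was kept when that number was higher in the dDAVP list than in the vehicle list in experiment 1 and again in experiment 2. These regions are called wider with dDAVP here. A total of 8488 shared regions, or 51.3%, were wider with vehicle in both experiments. A further 6605 were wider with dDAVP in experiment 1 and with vehicle in experiment 2, and 629 had the reverse pattern. The order of these counts depended on scale. Covered bases were also taken as a share of each list's own total over the shared regions, which sets the list totals equal. On that scale 5090 shared regions were wider with dDAVP in both experiments and 4036 with vehicle. Leaving out 1 library gave between 121 of 17003 shared regions, without dDAVP replicate 1, and 9097 of 22304, without dDAVP replicate 2. There each remaining dDAVP list was set against each remaining vehicle list, and shared meant a peak in every remaining list. The regions wider with dDAVP made up 55.6% of the 1421 shared regions that were wider with dDAVP in experiment 2. For comparison, 44.8% of all shared regions were wider with dDAVP in experiment 1, whatever their direction in experiment 2.

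H3K27ac marks active promoters and enhancers, and broad stretches of it are known from strongly active genes. In principal cells of the collecting duct, vasopressin binds the V2 receptor, adenylyl cyclase makes cAMP, and protein kinase A is activated. This brings the water channel aquaporin-2 to the apical membrane and, over hours, raises transcription of its gene. Kinase A also phosphorylates CREB, a factor that binds the cAMP response element TGACGTCA, while phosphodiesterases such as those of the Pde4 family break cAMP down again.

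Promoters inside or across the edge of 5 of the chosen regions are shown because their genes recur in the results. They belong to the water channel gene Aqp2, the phosphodiesterase gene Pde4b, the nuclear receptor gene Nr4a3, the kinase gene Sik2 and the protein disulfide isomerase gene Txndc5. Each runs from 250 bases before to 50 bases after a transcription start, 5′ to 3′ on the gene's strand, from RefSeq on build GRCm38.p6 (mm10). Capitals mark TGACG, the core of the cAMP response element, and its reverse complement CGTCA. The Aqp2 promoter lies at chr15:99578806-99579105 on the plus strand, the Pde4b promoter at chr4:102569810-102570109 on the plus strand and the Nr4a3 promoter at chr4:48045055-48045354 on the plus strand. The Sik2 promoter lies at chr9:51009024-51009323 and the Txndc5 promoter at chr13:38528775-38529074, both on the minus strand.
Aqp2: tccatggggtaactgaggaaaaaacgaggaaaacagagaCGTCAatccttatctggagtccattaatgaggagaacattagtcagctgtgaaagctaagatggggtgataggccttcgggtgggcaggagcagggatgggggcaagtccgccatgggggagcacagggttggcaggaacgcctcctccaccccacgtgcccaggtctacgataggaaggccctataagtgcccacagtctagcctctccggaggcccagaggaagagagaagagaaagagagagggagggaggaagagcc
Pde4b: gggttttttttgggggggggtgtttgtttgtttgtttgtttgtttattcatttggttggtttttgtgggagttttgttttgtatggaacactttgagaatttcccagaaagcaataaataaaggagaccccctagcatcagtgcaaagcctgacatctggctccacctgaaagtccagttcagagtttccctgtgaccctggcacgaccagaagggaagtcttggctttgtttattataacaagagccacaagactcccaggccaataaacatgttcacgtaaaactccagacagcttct
Nr4a3: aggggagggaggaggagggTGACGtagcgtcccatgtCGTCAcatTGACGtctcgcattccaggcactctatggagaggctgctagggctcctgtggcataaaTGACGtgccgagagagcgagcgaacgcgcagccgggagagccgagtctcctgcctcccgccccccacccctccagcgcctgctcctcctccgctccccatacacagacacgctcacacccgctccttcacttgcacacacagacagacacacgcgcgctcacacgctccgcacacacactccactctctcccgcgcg
Sik2: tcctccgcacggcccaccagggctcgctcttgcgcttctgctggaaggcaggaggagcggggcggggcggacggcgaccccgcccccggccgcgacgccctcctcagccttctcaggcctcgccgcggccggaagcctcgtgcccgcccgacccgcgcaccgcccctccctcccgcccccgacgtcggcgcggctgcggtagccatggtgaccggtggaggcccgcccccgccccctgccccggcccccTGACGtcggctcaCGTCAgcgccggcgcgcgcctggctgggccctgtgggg
Txndc5: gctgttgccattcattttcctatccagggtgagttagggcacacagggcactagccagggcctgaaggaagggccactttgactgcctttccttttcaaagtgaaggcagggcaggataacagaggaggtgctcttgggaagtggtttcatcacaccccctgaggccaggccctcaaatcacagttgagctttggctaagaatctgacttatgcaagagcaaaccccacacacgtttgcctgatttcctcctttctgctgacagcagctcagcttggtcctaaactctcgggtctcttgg
The Nr4a3 window held 4 such cores, the Sik2 window 2 and the Aqp2 window 1, while these letters are not in the Pde4b and Txndc5 windows. None of these windows held the full element TGACGTCA.

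The 4 libraries differed in ways that touch every width. The dDAVP lists held 37232 and 20122 peaks in experiments 1 and 2, and the vehicle lists held 39741 and 29594. They covered 98.97 and 33.5 Mb with dDAVP, against 104 and 56.9 Mb with vehicle. Between 27923780 and 32705755 tags were kept per immunoprecipitated library. The fragment length used in the peak calls was 255 and 215 bp for dDAVP, against 241 and 210 bp for vehicle. Of the 790 regions, 754 were wider by more than that difference of 14 bp in experiment 1 and 5 bp in experiment 2, and 36 were not. Over all shared regions the log2 ratios of covered bases in the 2 experiments had a Pearson correlation of 0.18 and a Spearman correlation of 0.16. Those are descriptions, since neighbouring regions share libraries and depth. A shared region lay at an end of 12 of 18 principal cell genes, Aqp2 included, against 5 of 14 intercalated cell genes, 1 of 14 proximal tubule genes, 2 of 10 genes of the thick limb and distal convoluted tubule, 0 of 12 fibroblast genes and 2 of 14 leukocyte and endothelial genes. The principal cell genes without one were Aqp4, Nedd4l, Scnn1b, Sgk1, Slc14a2 and Stc1.

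Most of the differences in width were small. The median covered width of the 790 regions was 3334 bp in dDAVP replicate 1 and 1650.5 bp in dDAVP replicate 2, against 2574 bp in vehicle replicate 1 and 1451 bp in vehicle replicate 2. Over all shared regions these medians were 2943 and 1380 bp with dDAVP and 3050 and 1970 bp with vehicle. The merged regions themselves were of ordinary size: their median was 3450.5 bp, while that of all shared regions was 3476 bp. The median ratio of dDAVP to vehicle was 1.17 in experiment 1 and 1.12 in experiment 2, against 0.978 and 0.724 over all shared regions. The smaller of the 2 differences had a median of 121 bp and ran up to 2759 bp. It reached 100 bp in 444 regions, 500 bp in 114 and 1000 bp in 27. The smaller of the 2 ratios reached 1.2 in 153 regions, 1.5 in 40 and 2 in 9.

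**Figure D1:**
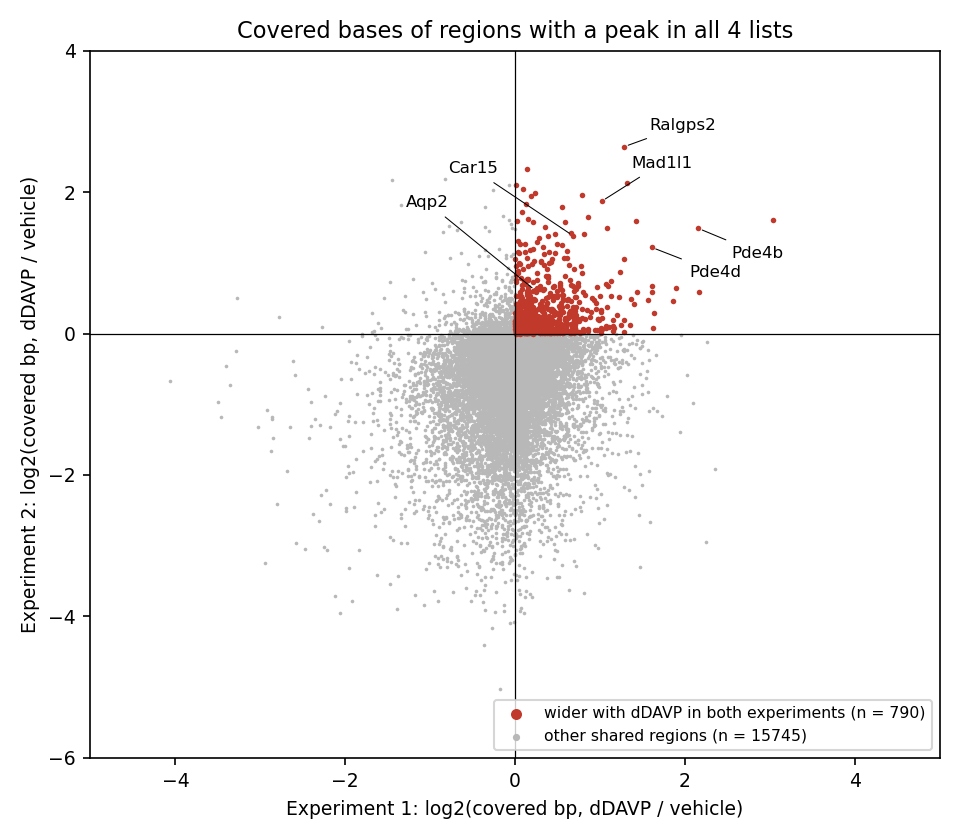
Log2 ratio of covered base pairs, dDAVP over vehicle, in experiment 1 (horizontal) and experiment 2 (vertical), 1 point per shared region. The 790 regions wider with dDAVP in both experiments (red) fill the upper right part by construction, and most of the other 15745 (grey) lie below 0 in experiment 2.

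The added bases lay mainly at the edges, in experiment 1 at a share close to that of all shared regions. In experiment 1, dDAVP peaks covered 555 kb beyond the outermost vehicle peak edges of the regions and 170 kb in gaps between vehicle peaks, so 76.6% of the bases covered with dDAVP alone were flank, against 75.8% over all shared regions. In experiment 2 the flanks held 288 kb and the gaps 68.3 kb, or 80.8% flank, against 70.1% over all shared regions. Bases covered with vehicle alone came to 83.2 kb in experiment 1 and 103 kb in experiment 2. Exactly 1 peak was called in 781 and 717 of the 790 regions in the dDAVP lists, against 699 and 718 in the vehicle lists. Over all shared regions that held for 92.8% and 87.0% in the dDAVP lists, against 93.1% and 85.1% in the vehicle lists. In all, the regions held 3.45 and 1.76 Mb of called bases with dDAVP, against 2.81 and 1.503 Mb with vehicle.

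Aqp2, the vasopressin-regulated water channel gene, lay in the region with the highest smaller difference, chr15:99572190-99590278 on mm10. The region contains the gene and its promoter, and an end of the neighbouring water channel gene Aqp5 lay within 1 kb of it. Covered bases were 18089 and 12157 bp in dDAVP replicates 1 and 2, against 15330 and 7968 bp in vehicle replicates 1 and 2. Within each experiment the dDAVP list was higher, by 3474 ± 1011 bp on average (SD, n = 2 experiments), but vehicle replicate 1 lay above dDAVP replicate 2, so the groups overlapped. The dDAVP lists called 1 and 3 peaks there and the vehicle lists 2 and 4. Gaps between vehicle peaks held 2061 of the bases covered with dDAVP alone in experiment 1 and 5060 of them in experiment 2. Flanks held 698 and 271 bp. The printed Aqp2 promoter was covered whole in all 4 lists, so the added bases lay outside it. In a culture harvested whole, fewer cells with the mark and less of the mark per cell cannot be told apart.

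Pileup, the mean tag coverage of the called peaks, is given here scaled to 1000000 kept tags and called depth-scaled pileup. In the Aqp2 region it was 1.13 and 0.67 with dDAVP, against 0.65 and 0.51 with vehicle. The ratio was 1.73 in experiment 1 and 1.33 in experiment 2. Both dDAVP lists were above both vehicle lists, the lower dDAVP list by a narrow margin. Pileup is a mean over the called bases, so a list that calls more of a low flank averages over more low bases.

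Aqp3, the gene of a basolateral water channel of principal cells, was the only other principal cell gene linked to a region wider with dDAVP. A region was linked to a protein-coding gene when an end of that gene was the nearest within 100 kb. Nearest is a label of position, and whether a region acts on that gene was not tested. The region chr4:41077688-41079620, 13104 bp from the gene, was covered over 1933 and 1202 bp with dDAVP, against 1314 and 349 bp with vehicle. Those 2 regions stood among 31 shared regions linked to the principal cell list, of which 14 were wider with vehicle in both experiments. The list's median ratio of covered bases was 1.01 in experiment 1 and 0.602 in experiment 2.

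Genes of cAMP phosphodiesterases held 2 of the 8 regions with the highest smaller ratio of covered bases, 1 in Pde4b and 1 in Pde4d. At chr4:102509711-102513786, inside Pde4b, covered bases were 4076 and 2136 bp with dDAVP, against 913 and 762 bp with vehicle. Both dDAVP lists lay above both vehicle lists. The ratio was 4.46 in experiment 1 and 2.80 in experiment 2. Depth-scaled pileup was 0.89 and 0.88 with dDAVP and 0.52 and 0.49 with vehicle, and the smaller pileup ratio of 1.71 was the highest among the 790 regions. All added bases were flank, 3163 and 1374 bp. A second Pde4b region, chr4:102567682-102572064, holds the promoter printed above. It was covered over 4383 and 3042 bp with dDAVP, against 3419 and 2588 bp with vehicle, and here vehicle replicate 1 exceeded dDAVP replicate 2.

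Pde4d, which encodes another enzyme of the family, held a region at chr13:109819615-109825110 with no gene end within 100 kb. Its covered bases were 5496 and 3481 bp with dDAVP, against 1800 and 1496 bp with vehicle, and the groups did not overlap. Depth-scaled pileup was 0.73 and 0.76 with dDAVP, against 0.57 and 0.53 with vehicle. A second region in Pde4d, chr13:109229303-109231568, was covered over 2266 and 765 bp with dDAVP and over 954 and 704 bp with vehicle. Pde4a, the third family member with such regions, had 1 across its end and 1 that lay 3651 bp away. The distant region, chr9:21160961-21162049, was covered over 1089 and 677 bp with dDAVP, against 292 and 433 bp with vehicle. The region at the end, chr9:21163955-21169798, was covered over 5844 and 1794 bp with dDAVP and 3614 and 1772 bp with vehicle, so the difference in experiment 2 was 22 bp. Its depth-scaled pileup was lower with dDAVP, at 1.11 and 0.92, against 1.23 and 1.38 with vehicle.

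Counted together, the Pde4a, Pde4b, Pde4c and Pde4d genes had 12 shared regions linked to them or inside them, and 6 of those were wider with dDAVP in both experiments. This grouping was made after the values were seen. Over the 12 regions the median ratio of covered bases was 1.22 in experiment 1 and 0.943 in experiment 2, and 2 were wider with vehicle in both. The cAMP list had further regions wider with dDAVP at Adcy6 and Akap12. Adcy6, the adenylyl cyclase that makes cAMP in collecting duct cells, had 4320 and 1193 bp with dDAVP, against 3896 and 707 bp with vehicle. Akap12, the gene of a scaffold that anchors protein kinase A, had 8478 and 2901 bp with dDAVP, against 6399 and 2841 bp with vehicle. In both, vehicle replicate 1 exceeded dDAVP replicate 2. Depth-scaled pileup at Adcy6 and at Akap12 was lower with dDAVP in both experiments. The cAMP and protein kinase A list had 6 of 39 linked shared regions wider with dDAVP, and 8 of 50 when regions inside a gene were also counted. Of the 39, 19 were wider with vehicle in both experiments, and the list's median ratios were 0.962 and 0.723.

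**Figure D2:**
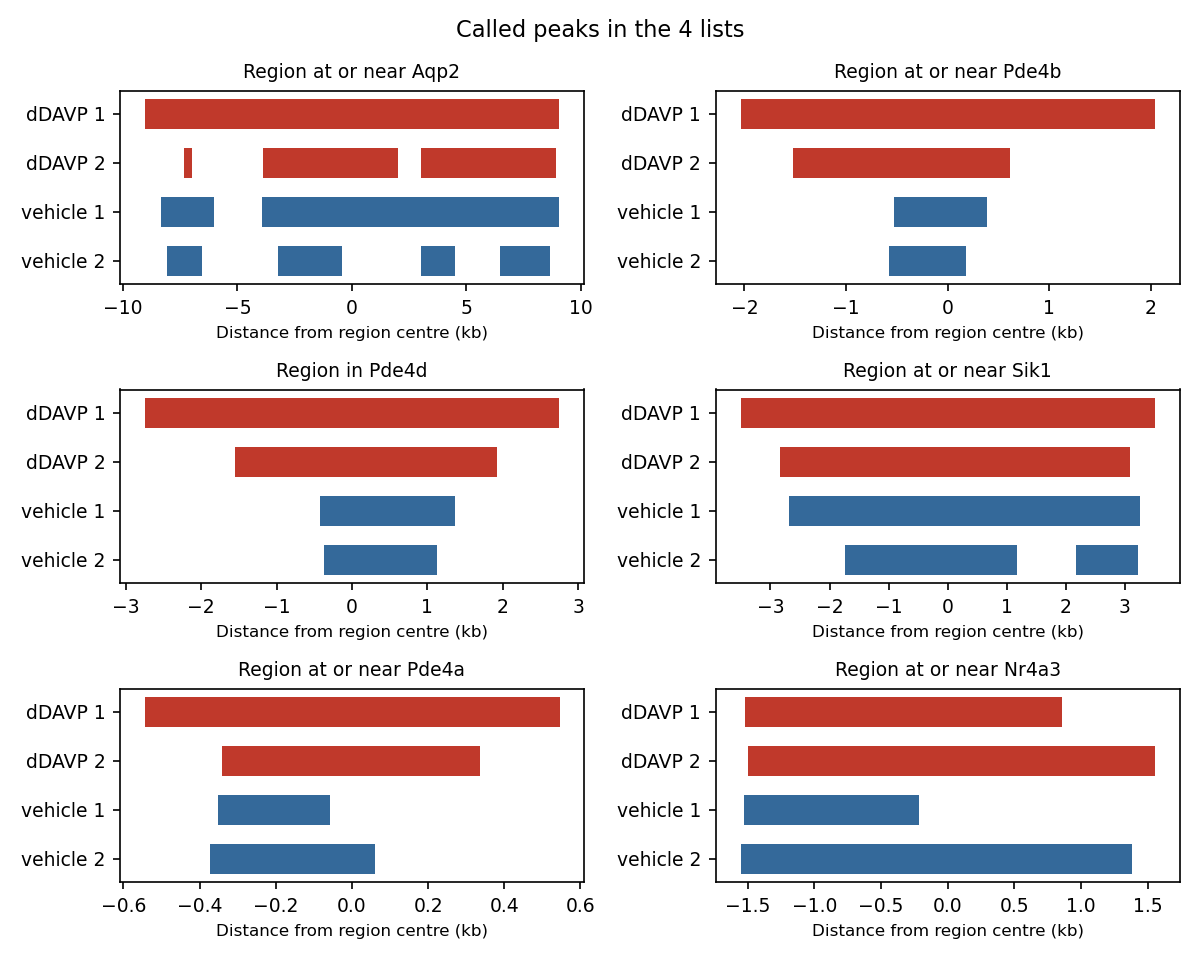
Called peaks (bars) in dDAVP replicates 1 and 2 (red) and vehicle replicates 1 and 2 (blue), by distance from the centre of the region in kb, for regions at or near Aqp2, Pde4b, Pde4d, Sik1, Pde4a and Nr4a3. At Aqp2 the vehicle peaks are broken by gaps that dDAVP peaks partly span, while at Pde4b and Pde4d the dDAVP peaks reach beyond both edges of the vehicle peaks.

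Genes of the CREB family and cAMP-responsive genes had 6 of 58 linked shared regions wider with dDAVP, against 26 wider with vehicle in both experiments. Sik1, a kinase gene induced by cAMP whose product restrains the coactivators of CREB, had 7014 and 5916 bp covered with dDAVP, against 5931 and 3954 bp with vehicle. In experiment 2 the vehicle list called 2 peaks where the dDAVP list called 1. Crem, which encodes a relative of CREB with activating and repressing forms, had 3717 and 2231 bp with dDAVP and 1752 and 1723 bp with vehicle at chr18:3279458-3283174, with no overlap. Depth-scaled pileup at Crem ran the other way, at 0.88 and 0.82 with dDAVP, against 0.90 and 1.09 with vehicle.

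Nuclear receptors of the NR4A group are encoded by immediate early genes. Nr4a3 had 2382 and 3055 bp with dDAVP, against 1317 and 2932 bp with vehicle. Its printed promoter was covered in neither list of experiment 1 and whole in both lists of experiment 2, with no difference between treatments. A region inside Nr4a2, chr2:57114133-57119330, was covered over 5146 and 3889 bp with dDAVP, against 3822 and 3513 bp with vehicle, with no overlap. Depth-scaled pileup there was 1.36 and 1.21 with dDAVP, against 1.03 and 1.06 with vehicle. Egr1 and Egr2 are immediate early genes of zinc finger factors. Egr2 had 2634 and 2719 bp with dDAVP, against 2041 and 2575 bp with vehicle, with no overlap. Its depth-scaled pileup was lower with dDAVP, at 0.69 and 1.00, against 0.77 and 1.23 with vehicle. The Egr1 region was wider by 29 and 3 bp. Sik2, a kinase gene related to Sik1, was wider by 188 and 90 bp, and its promoter was covered whole in all 4 lists. Depth-scaled pileup was also lower with dDAVP in both experiments at Egr1 and Sik2, and it was higher in both at Sik1. For this list the median ratio of covered bases was 1.01 in experiment 1 and 0.781 in experiment 2.

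The remaining regions with large differences were linked to genes of many kinds. A region inside Mad1l1, which encodes a protein of the mitotic spindle checkpoint, was covered over 13590 and 3527 bp with dDAVP, against 6698 and 963 bp with vehicle. Its depth-scaled pileup was 0.70 and 0.60 with dDAVP, against 0.43 and 0.36 with vehicle. Covered bases overlapped between the groups there, while pileup did not. Near Car15, a carbonic anhydrase gene, the region chr16:17826032-17832767 had 6736 and 5287 bp with dDAVP, against 4201 and 2025 bp with vehicle. Its depth-scaled pileup was 1.06 and 0.73 with dDAVP, against 0.62 and 0.51 with vehicle, and neither measure overlapped. Ralgps2, the gene of an exchange factor for the small GTPase Ral, lay 49272 bp from a region with 3516 and 1806 bp with dDAVP, against 1442 and 289 bp with vehicle. Those groups did not overlap either.

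The other regions among the 12 with the highest smaller difference lay at or near Nfxl1, Atxn1, Trim25, Adck1, Tmem178, Plce1 and Dnttip2. The region in Nfxl1 had 5229 and 3076 bp with dDAVP, against 3316 and 1150 bp with vehicle. The one near Atxn1, the gene of the transcriptional regulator ataxin-1, had 9550 and 5010 bp with dDAVP, against 7828 and 3243 bp with vehicle. In these regions and the 5 that follow, vehicle replicate 1 exceeded dDAVP replicate 2. Trim25, which encodes a ubiquitin ligase of antiviral signalling, had 10914 and 4769 bp with dDAVP, against 8670 and 3115 bp with vehicle. Adck1 had 10131 and 4763 bp with dDAVP, against 7374 and 3293 bp with vehicle. Plce1, the gene of phospholipase C epsilon, had 5908 and 2671 bp with dDAVP, against 4504 and 1023 bp with vehicle. At Tmem178 the values were 10410 and 3872 bp with dDAVP, against 6475 and 2423 bp with vehicle. The region near Dnttip2, 26745 bp away, had 13866 and 8978 bp with dDAVP, against 12149 and 7484 bp with vehicle.

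**Figure D3:**
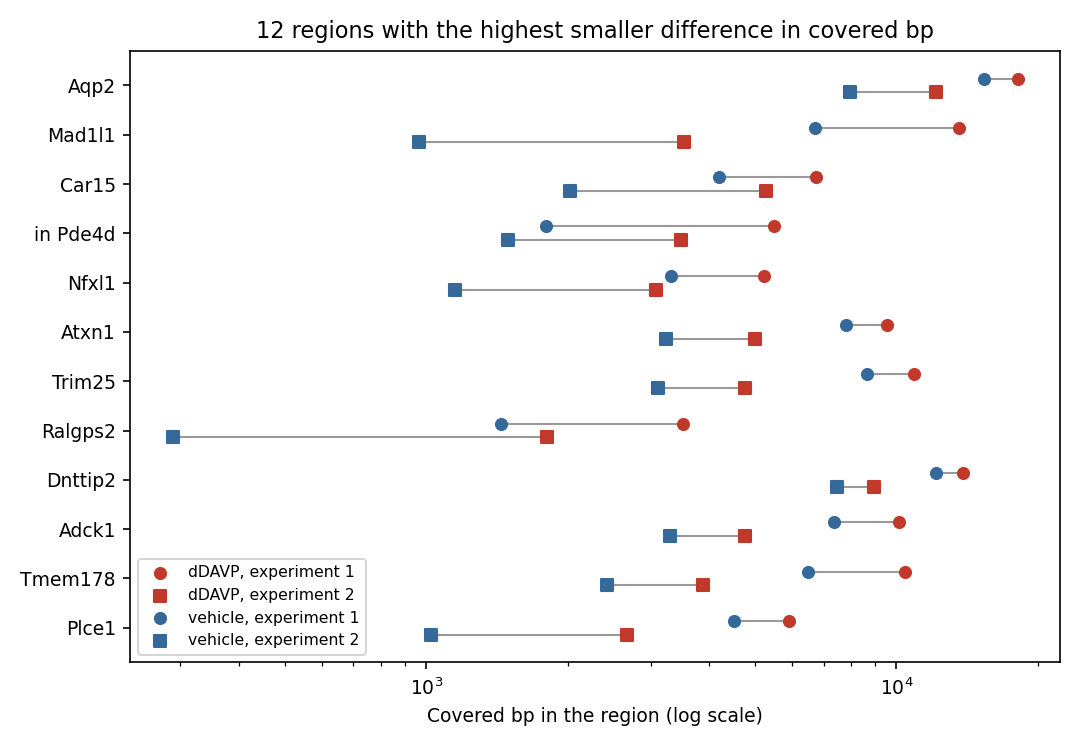
Covered base pairs on a log scale in the 12 regions with the highest smaller difference, named by the nearest gene or the gene that holds them, for dDAVP (red) and vehicle (blue) in experiment 1 (circles) and experiment 2 (squares). Within each experiment the dDAVP point lies right of the vehicle point by construction, and experiment 1 lies right of experiment 2 for the same treatment in every region shown.

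The highest smaller ratio belonged to a region with no gene end within 100 kb, chr10:111755890-111759575. It had 3655 and 896 bp with dDAVP, against 447 and 293 bp with vehicle, and ratios of 8.18 and 3.06. Its depth-scaled pileup was 0.452 and 0.400 with dDAVP, against 0.355 and 0.405 with vehicle, and the groups overlapped in pileup but not in covered bases. Hdac4, the gene of a class IIa histone deacetylase, held a region with 2370 and 671 bp with dDAVP, against 974 and 324 bp with vehicle. A second region in Hdac4 had 3202 and 1199 bp with dDAVP, against 1524 and 737 bp with vehicle. The other regions of the 8 with the highest smaller ratio lay in or near Ect2l, Gm4606 and Colca2, beside Pde4b, Ralgps2 and Pde4d.

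The 8 highest smaller pileup ratios belonged to regions at or near Pde4b, Mad1l1, Armc9, Arhgef3, Baiap2l2 and Pla2g6, Car15, Synpo and Nlrc4. Synpo, which encodes the actin-associated protein synaptopodin, had a depth-scaled pileup of 0.71 and 0.70 with dDAVP, against 0.48 and 0.49 with vehicle. Arhgef3, a guanine nucleotide exchange factor gene, had 1.19 and 0.67 with dDAVP, against 0.81 and 0.36 with vehicle. Nlrc4, an inflammasome gene, had 0.68 and 0.70 with dDAVP, against 0.48 and 0.43 with vehicle. The groups did not overlap at Synpo and Nlrc4 and overlapped at Arhgef3. The highest mean pileup of all 790 regions was at Pklr, the gene of the pyruvate kinase of liver and red cells, with 4.35 and 3.59 with dDAVP, against 3.69 and 3.74 with vehicle. That region was wider by only 17 and 13 bp. The next highest were 2 regions in Syne2, a gene of the nuclear envelope, and those at Esrrb, a nuclear receptor gene, and at Aimp1 and Tbck. The higher of the Syne2 regions had 3.57 and 2.08 with dDAVP, against 3.18 and 2.21 with vehicle, and the groups overlapped. At Aimp1 and Tbck the values were 2.22 and 2.18 with dDAVP, against 2.07 and 3.10 with vehicle. High pileup there was not always high fold enrichment, the authors' ratio to local background. At Esrrb that ratio was 1.64 and 1.60 with dDAVP, against 1.66 and 1.65 with vehicle. In the higher Syne2 region it was 2.77 and 1.95, against 2.50 and 1.92. At Pklr it was 4.61 and 3.66, against 3.76 and 3.79. At Aimp1 and Tbck it was 11.8 and 7.62, against 11.8 and 15.1. Its medians over the 790 regions were 4.88 and 3.98, against 4.95 and 4.44.

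Over the 790 regions as a whole, pileup differed between the experiments. The median depth-scaled pileup was 0.878 and 0.668 with dDAVP, against 0.845 and 0.737 with vehicle. The median ratio was 1.03 in experiment 1 and 0.869 in experiment 2, against 0.985 and 0.852 over all shared regions. Pileup was higher with dDAVP in 464 of the 790 regions (58.7%) in experiment 1 and in 237 (30%) in experiment 2. Over all shared regions those shares were 45.3% and 18.4%. Pileup was higher in both experiments in 179 of the 790, or 22.7%, against a background of 10.5% of shared regions. It was lower in both in 268 of the 790, against 7726 of all 16535 shared regions. That 22.7% became 8.95% with a -log10 q-value of at least 5 and 1.84% with lists of equal covered bases. These settings left 9429 and 6075 shared regions, whose own share was not computed, so 10.5% is not their background. Scaling covered bases to the list's own total over shared regions gave 9.96%, and a difference of at least 500 bp gave 54.4%. The authors' fold enrichment over local background was higher with dDAVP in both experiments in 158 regions, or 20.0%, against 7.33% of shared regions. Width and pileup come from the same tags and calls, so these shares are not independent of how the regions were chosen. Division by tags moved the median log2 ratio in experiment 1 to 0.04, against -0.19 without it.

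**Figure D4:**
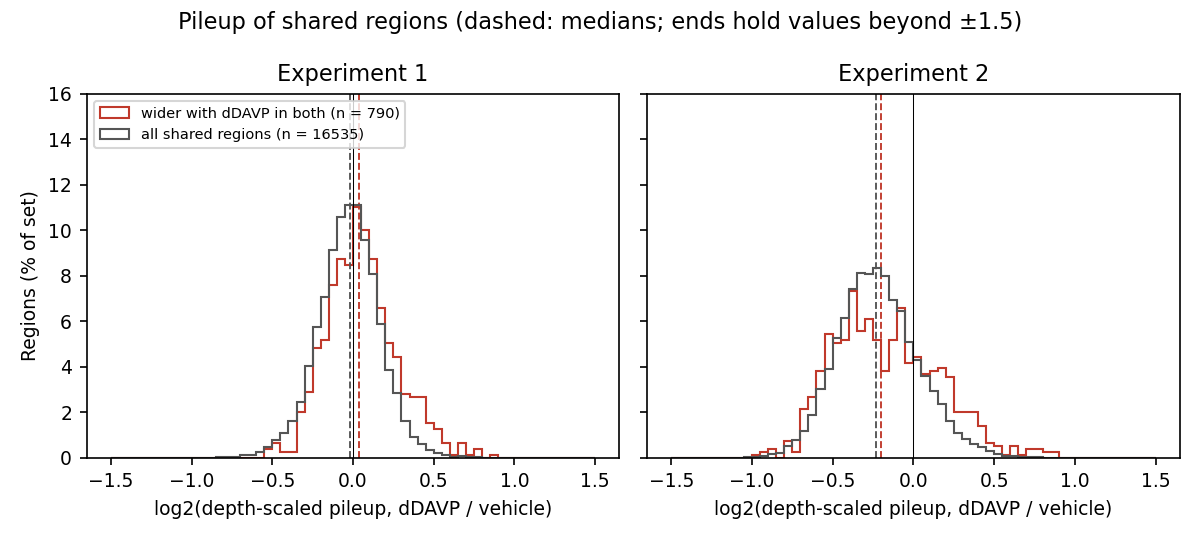
Share of regions by the log2 ratio of depth-scaled pileup, dDAVP over vehicle, in experiment 1 (left) and experiment 2 (right), for the 790 regions wider with dDAVP (red) and all 16535 shared regions (grey). The dashed medians lie close to 0 in experiment 1 and below 0 in experiment 2 for both sets.

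Location and pileup varied with the size of the gain in width. Of the 484 regions whose smaller ratio was under 1.1, 60.3% lay at a gene end, that is, within 1 kb of either end of a protein-coding gene. The share was 34.0% of the 153 regions from 1.1 to 1.2, 20.4% of the 113 regions from 1.2 to 1.5 and 7.5% of the 40 regions at 1.5 or more. Pileup was higher with dDAVP in both experiments in 15.1%, 25.5%, 38.1% and 60.0% of the regions in the same order. The mean depth-scaled pileup over the 4 lists had medians of 0.945, 0.698, 0.582 and 0.501 in that order, so the regions with the highest ratios had the lowest pileup. In the highest group the median pileup ratio was 1.22 in experiment 1 and 1.11 in experiment 2. Other shared regions were not grouped in this way, so whether such trends are particular to gains with dDAVP was not tested. Over all shared regions at gene ends the median log2 ratio of covered bases was -0.01 and -0.36 in experiments 1 and 2. It was -0.05 and -0.67 in gene bodies, and -0.08 and -0.67 between genes.

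**Figure D5:**
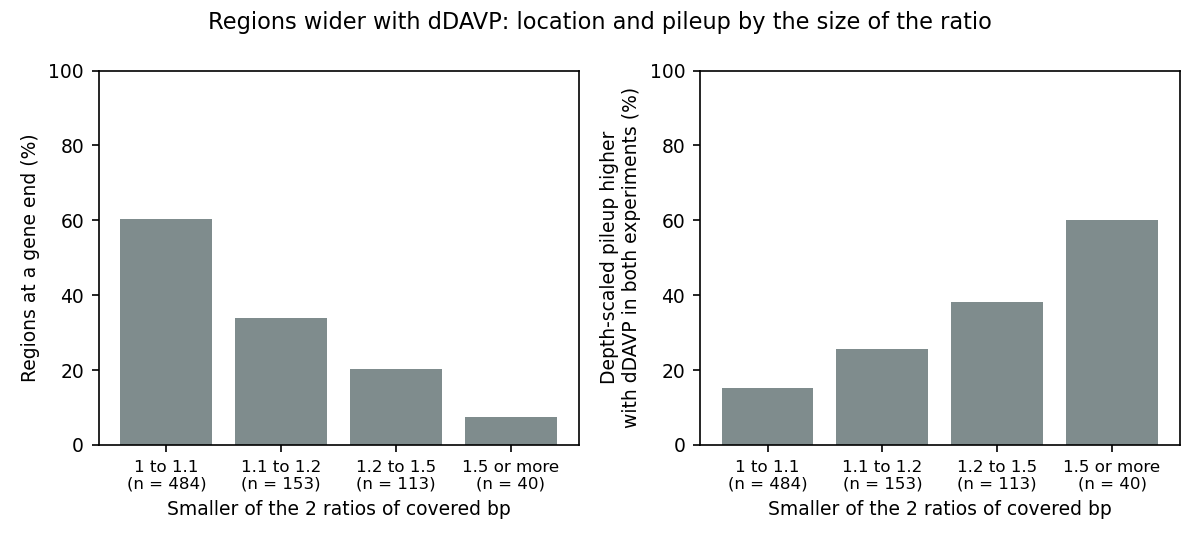
Share of the 790 regions at a gene end (left) and with higher depth-scaled pileup with dDAVP in both experiments (right), in percent, by the smaller of the 2 ratios of covered base pairs. From the lowest to the highest ratio the share at a gene end ran from 60.3% to 7.5% and the share with higher pileup from 15.1% to 60.0%. Other shared regions were not grouped in this way.

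By location, 370 of the 790 regions (46.8%, 95% Wilson interval 43.4 to 50.3) lay at a gene end, 210 (26.6%) inside a gene body and 210 between genes. Over all shared regions 54.0% lay at a gene end, 23.4% in a gene body and 22.6% between genes. The 46.8% became 70.5% with a -log10 q-value of at least 5 and 82.2% with lists of equal covered bases. The share at gene ends over the 9429 and 6075 shared regions left by these settings was not computed, so 54.0% is not their background. Scaling covered bases to the list's own total over shared regions gave 66.3%. The share was 17.0% with a ratio of at least 1.2 and 8.82% where both dDAVP lists were above both vehicle lists. Regions wider with dDAVP were 4.15% of shared regions at gene ends, 5.42% of those in gene bodies and 5.61% of those between genes. The smaller difference had a median of 76 bp at gene ends, 188.5 bp in gene bodies and 175.5 bp between genes. Intervals cover counting only, and neighbouring regions are not independent. The position on the chromosomes was uneven. The highest share of shared regions wider with dDAVP was 7.504% on chromosome 16, or 49 of 653, and the lowest was 1.56% on chromosome 7, or 14 of 898. Among the 789 regions that had a next shared region on their chromosome, 71 were followed by another of the 790, or 8.999%. The 790 are 4.78% of all shared regions.

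A total of 68 regions, or 0.411% of shared regions, had more covered bases in both dDAVP lists than in both vehicle lists, while 1909, or 11.5%, had the reverse. Of the 68, 8.82% lay at a gene end. They included the regions in Crem and Egr2, the first of those described in Pde4b and in Pde4d, the distant one near Pde4a and those near Car15 and Ralgps2. Others were inside Sctr, the secretin receptor gene, with 2422 and 1246 bp with dDAVP, against 1221 and 1090 bp with vehicle, and inside Akap9, which encodes a further anchor of protein kinase A, with 2078 and 1278 bp with dDAVP, against 1091 and 916 bp with vehicle. A region inside Esrp1, an epithelial splicing factor gene, had 2806 and 1405 bp with dDAVP, against 917 and 881 bp with vehicle. Between genes, 34358 bp from the transcription factor gene Sox4, a region had 2237 and 1710 bp with dDAVP, against 1670 and 846 bp with vehicle.

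Within 100 kb, 741 of the 790 regions were linked to 792 genes, and 49 had no gene end in reach. The regions overlapped a gene end in 349 cases, and the median distance of the linked regions outside the 1 kb window was 18595 bp. A total of 38 genes were linked to 2 regions, and 3 genes to 3. Eya2, a transcriptional cofactor gene, held 3 neighbouring regions between chr2:165630328 and chr2:165668543. They had 5340 and 2746 bp, 8317 and 5256 bp, and 7548 and 4359 bp with dDAVP, against 4597 and 2400 bp, 6194 and 5169 bp, and 5109 and 3534 bp with vehicle. Lmtk2, a kinase gene, had its largest region covered over 26587 and 14146 bp with dDAVP, against 23501 and 13210 bp with vehicle. The third of these genes was Slc38a6, an amino acid transporter gene.

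Transcription factor genes of the collecting duct and of epithelia had 9 of 73 linked shared regions wider with dDAVP, against 42 wider with vehicle in both experiments. Among the genes they were linked to were Cebpb, Cebpd, Elf1, Esrrb, Gata3, Grhl2, Pax2 and Tfcp2l1. Gata3, a factor of collecting duct identity, lay in a region of 34313 and 21371 bp with dDAVP, against 33718 and 21117 bp with vehicle, a gain of under 1.1 times. The region near Tfcp2l1, a regulator of collecting duct cell types, had 2519 and 859 bp with dDAVP, against 1818 and 696 bp with vehicle.

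The other lists held 4 or fewer of the regions each, but their shares were not all lower than those above. The share was 15.4% for intercalated cell genes, 14.3% for fibroblast genes and 13.3% for proliferation genes. It was 15.4% for the cAMP and protein kinase A list and 10.3% for the CREB list. Proliferation genes had 4 of 30, at Ccnb1, Ccnd3, Cdk2 and Pcna, and 9 of the 30 were wider with vehicle in both experiments. Genes of the cytoskeleton and vesicle delivery had 3 of 33, at Myo5b, Rock2 and Vamp3. Junction and polarity genes had 1 of 46, at Cldn8, the gene of a tight junction protein, with 25320 and 15642 bp with dDAVP, against 24171 and 15328 bp with vehicle. Glucocorticoid-responsive genes had 1 of 25, at Cebpd. Of intercalated cell genes, Atp6v1b1 and Atp6v1g3, which encode proton pump subunits, accounted for 2 of 13. The region at Atp6v1b1 was wider by 862 bp in experiment 1 and 5 bp in experiment 2. Fibroblast genes had 1 of 7, at Fbln5, while proximal tubule genes had 0 of 5, genes of the thick limb and distal convoluted tubule 0 of 11, and leukocyte and endothelial genes 0 of 6. These counts stand beside the 4.78% of all shared regions and, like it, follow from the choice.

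Few promoter windows differed in coverage in the same direction in both experiments. A total of 418 RefSeq promoter windows of 361 genes overlapped 314 of the 790 regions, and 348 of these windows were covered whole in all 4 lists. Only 2 were covered more with dDAVP in both experiments and 1 was covered less in both. The same counts over the 9932 windows that overlap a shared region were not computed. A Pde4a window, in the region at the end of that gene, differed in experiment 1 alone. It was covered over 100% in dDAVP replicate 1 and over 0% in dDAVP replicate 2 and both vehicle lists. The Txndc5 promoter printed above was covered over 100% and 100% of its bases with dDAVP, against 79.3% and 30% with vehicle. Its region, chr13:38526130-38529138, had 3009 and 1934 bp with dDAVP, against 2102 and 1679 bp with vehicle, and lower depth-scaled pileup, 1.04 and 0.74 with dDAVP, against 1.201 and 1.11 with vehicle. The Pklr promoter was covered over 97% and 88% with dDAVP, against 95.7% and 84.7% with vehicle.

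Short motifs were counted on both strands of these windows. The core TGACG was in 41.4% of the 418 windows, against 34.2% of the 9932 windows that overlap a shared region and 23.8% of all 21045. The full element TGACGTCA, which contains the core, was in 2.63%, against 3.54% and 2.26% in the same sets. TGANTCA, bound by AP-1 factors, was in 6.46%, against 4.60% and 7.04%. CCGGAAG, bound by Ets factors, was in 17.9%, against 20.7% and 11.7%. AACCNGTT, bound by grainyhead factors, was in 3.35%, against 1.90% and 1.97%. TTGCGCAA, bound by C/EBP factors, was in 0 of the 418 windows, against 0.292% and 0.223%. A gene can have several overlapping windows, so these shares describe windows and not genes.

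At the limit of the rule, 4 regions had a smaller difference of 1 bp and 8 shared regions just missed it at 0 bp. Just inside lay a region linked to Cebpb, a C/EBP factor gene, with 3726 and 981 bp with dDAVP, against 3626 and 980 bp with vehicle. The Babam2 and Rbks region, with 2624 and 2387 bp with dDAVP, against 2526 and 2386 bp with vehicle, was inside too, as was that of Epor, the erythropoietin receptor gene, and Swsap1. Just outside were the regions of Actr2, of Fyttd1, and of Actr1a and Sufu. Actr2 had 3411 and 2063 bp with dDAVP, against 3411 and 2055 bp with vehicle.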

How the data were processed

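A set of 4 H3K27ac peak lists was used. MACS 2.1.1.20160309 had made each from 1 immunoprecipitated library and its matching input, in broad mode with q-value limits of 0.01 and 0.1, per the file headers, and no replicates were pooled. Per the submitters' processing notes, BWA, SAMtools and mm10 were used. The deposited pileup column is a signal, the mean tag coverage of a peak, and the deposited fold enrichment is a ratio to local background. The names of 2 deposited columns were lost, and their values have the range of a -log10 p-value and a -log10 q-value. All these are values the authors gave each peak, and the -log10 q-value served only as a filter.

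Peaks were merged with Python 3.11.15 and pandas 2.3.3. Pileup of a region is the mean over a list's peaks weighted by width, scaled to 1000000 kept tags of the smaller data set of that call, to which the caller scales, per the file headers. Kept tags numbered 27923780 and 31676748 with dDAVP and 32705755 and 31283282 with vehicle, and the inputs held 38291361 and 30753752 tags with dDAVP and 35901413 and 35142984 with vehicle. No read counts per region were used, and precision rests on 2 experiments.

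Libraries were paired by the experiment number in their titles, and that pairing is part of the rule that chose the regions. No test was made, because the rule used the same contrast, and an exact two-sided test over 2 pairs cannot give a p below 0.5. The members and the 13 gene lists were chosen with earlier results of these data known. Named are the 12 regions with the highest smaller difference, the 8 with the highest smaller ratio of covered bases and of pileup, the 5 with the highest mean pileup, genes of the lists, genes with more than 1 region and the 3 regions on each side of the limit; of genes with more than 1 region, the text gives values for some. A linked gene of the lists is not reported here. Genes and promoters came from RefSeq tables of the same build. A promoter entry was there for 79.9% of protein-coding genes, so location was set by gene ends with a window of 1 kb in place of the planned promoter window. The scripts were tested on simulated peak lists with known answers. Alternatives were other peak filters, lists of equal length, other ways to count and scale covered bases, pairing, and leaving out each library.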

Additional observations from a re-analysis of the deposited data

Results flagged for a closer look

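Outside chromosomes 1 to 19 and X, where the regions were built, the lists held 25 and 7 peaks with dDAVP in experiments 1 and 2, against 15 and 15 peaks with vehicle. Each number is above the 3 that a count of 0 allows, and these peaks entered no comparison. Groups of 2 libraries allow no search for a library far from the rest of its group.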

How the results depend on the processing

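The number of regions wider with dDAVP depended on how covered bases were counted, and the cause was not tested. Against 790 regions, peaks with a -log10 q of at least 5 left 447. Requiring each of the 4 lists to cover at least 50% of the region left 291. A ratio of at least 1.2 left 153, and covered bases as a share of the list's own total over shared regions gave 5090. Of the shared regions under each setting these were 4.74%, 5.49%, 0.925% and 30.8%, against 4.78% as reported. The q limit and the 50% limit also cut the shared regions, from 16535 to 9429 and 5304. The counts wider with vehicle, 8488 as reported, were 4620, 2666, 2872 and 4036 in that order. Regions with pileup higher in both experiments were 8.95%, 14.1%, 43.8% and 9.96%, and those at a gene end 70.5%, 58.8%, 17.0% and 66.3%. The ratio of at least 1.2 also turned the median log2 pileup ratio of experiment 2 to 0.077, against -0.20. Peaks of at least 3 in fold enrichment, equally long lists and lists equally long within an experiment left 638, 721 and 769 regions. Those were 4.83%, 4.97% and 4.95% of the shared regions left. Of the 638, 721 and 769 regions, 15.0%, 15.0% and 15.3% were higher in pileup and 58.8%, 54.5% and 51.8% lay at a gene end. For settings that cut the shared regions, the pileup and gene end shares over all those left were not computed. Pileup not divided by tags left 12.3% higher, with a median log2 ratio of -0.19 in experiment 1. Of the 12 regions with the highest smaller difference, all 12 were kept with covered bases as a share of the list's own total. The q limit kept 7, the 50% limit 1 and the ratio of at least 1.2 kept 10. The Aqp2 region was lost with the 50% limit and with that ratio. Peaks of at least 3 in fold enrichment and both kinds of equally long lists kept 9, without those of Mad1l1, Ralgps2 and Plce1.

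Alternatives chosen after seeing the data were a difference above that in fragment length, which left 754 regions, a difference of at least 100 bp, of at least 500 bp and lists of equal covered bases. The last 3 left 444, 114 and 381 regions, or 2.69%, 0.689% and 6.27% of the shared regions under each setting. Of the 444, 114 and 381 regions, 31.8%, 54.4% and 1.84% were higher in pileup and 35.6%, 24.6% and 82.2% lay at a gene end. The last 2 moved the experiment 2 median to 0.078 and -0.44 and the regions wider with vehicle to 3007 and 2800. Lists of equal covered bases kept 2 of the 12 regions with the highest smaller difference, and the Aqp2 region was not among them.

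Without the replicate block, that is, without the pairing by experiment, both dDAVP lists were above both vehicle lists in 68 regions and the reverse held in 1909. Of the 68, 30.9% had pileup higher in the same unpaired way and 8.82% lay at a gene end. Aqp2 and Mad1l1 were not among them.

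With 1 library left out, each dDAVP list was set against each vehicle list that remained. That gave 121 of 17003 shared regions without dDAVP replicate 1 and 9097 of 22304 without dDAVP replicate 2. Without vehicle replicate 1 it gave 1409 of 16901, and without vehicle replicate 2 it gave 213 of 16745. Shared here means a peak in every list that remained. Across these settings the regions wider with vehicle numbered 2442 to 15281. The share higher in pileup was 25.3% to 38.5% and the share at a gene end 11.6% to 49.9%. Depth per region is not known from peak lists, so a peak that was not called does not show that the mark was absent.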

Other observations

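Values follow for 5 of the 38 genes linked to 2 regions wider with dDAVP, which were picked after their values were seen. Of the regions linked to Arf6, the gene of a small GTPase of membrane traffic, the region at the gene had 10407 and 3638 bp with dDAVP, against 9340 and 3551 bp with vehicle. At Fads2, a fatty acid desaturase gene, covered bases were 8553 and 3091 bp with dDAVP, against 6447 and 3065 bp with vehicle. A region linked to Irs2, which encodes a substrate of the insulin receptor, had 1038 and 953 bp with dDAVP, against 975 and 507 bp with vehicle. In these regions vehicle replicate 1 lay above dDAVP replicate 2, and only the difference within each experiment set them apart.

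Long regions of this kind also lay in Macc1 and in Ralgapa2, a gene of a Ral GTPase-activating protein. Macc1 had regions of 14389 and 5918 bp and of 10467 and 7545 bp with dDAVP, against 13458 and 5331 bp and 9453 and 6983 bp with vehicle. The larger of the Ralgapa2 regions had 13862 and 6543 bp with dDAVP, against 9959 and 5900 bp with vehicle.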
